A study of Mus musculus with 6 samples.

Results

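Matrix genes of the early mouse mesoderm are described here in 6 RNA-seq libraries, 3 from control embryos and 3 from embryos expressing Gli3R. The set holds 47 genes picked by symbol (collagens, laminins, other matrix proteins, matrix-binding integrins, matrix enzymes) out of the 24975 genes in the count table, and all 47 were found. Controls carried 1 copy each of Mesp1-Cre and R26-tdTomato, and the other group carried Mesp1-Cre with R26-Gli3R-IRES-Venus. Both groups therefore carry Cre driven from Mesp1, a gene of nascent mesoderm, and cells outside that lineage are not marked. Gli3R is the truncated, repressing version of Gli3, one of the factors that carry the Hedgehog signal to genes. A note in the deposited table says that control cells were sorted on tdTomato and Gli3R cells on Venus, so an effect of Gli3R cannot be told apart from one of the reporter or its gate. Embryos were taken at embryonic day 7.5 and pooled with their littermates, 1000 sorted cells went into each library, and each of 3 litters gave 1 library per group. In pooled tissue of this kind, fewer cells of a type and less RNA per cell cannot be told apart.

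The extracellular matrix is the protein and sugar scaffold that cells secrete around themselves. Type IV collagen and laminin each form a sheet-like network, joined by nidogen and perlecan into the basement membrane that underlies epithelia. Mesoderm cells leaving the primitive streak cross a looser matrix of fibronectin and hyaluronan, which they hold through integrins, and fibronectin or its integrin receptor is required for mesoderm to develop in mouse embryos. Fibrillar collagens, which give mature connective tissue its strength, become abundant later.

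Library totals ran from 5481190 to 12635151 counts, so 1 count stood for 0.0777 to 0.186 CPM. CPM are counts scaled to a common library size (TMM scaling, trimmed means of M-values). The shallowest library, control of litter 1, lay apart on the first principal component (-39.8, against -2.25 to 19.2 for the others). Gli3 itself, part of which the transgene carries, read 25.8 to 34.4 CPM in control and 39.0 to 50.9 CPM in Gli3R libraries (log2 fold change 0.57 ± 0.15 (SE), adjusted p = 0.312, edgeR).

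As for the label, all 12 nascent mesoderm markers were tested and 0 passed (edgeR, with or without litter as a block), and their sum ran from 516 to 589 CPM in control and from 565 to 658 CPM with Gli3R. Means went both ways: Hand1 averaged 133 CPM in control against 180.1 CPM with Gli3R, while Tbx6 averaged 7.51 against 2.57, Lefty2 4.28 against 1.55 and Mixl1 10.4 against 5.51 CPM. For Tbx6 the control of litter 1 read 14.1 CPM, and the other controls 5.39 and 3.04 CPM. For Mixl1 it read 17.1 CPM, and the others 7.31 and 6.85 CPM. Visceral endoderm markers summed to 63.1 to 102.7 CPM in control and 65.0 to 109.6 CPM with Gli3R, most of it Cer1 (62.5 against 67.1 CPM). Over all libraries together, 8 of the 12 averaged under 1 CPM, Hnf4a among them. Parietal endoderm markers summed to 111 to 175 and 140.01 to 149 CPM. Of these 9, Pth1r fell (24.9 to 10.3 CPM, adjusted p = 0.0114, edgeR). Dab2 averaged 57.5 against 68.7, Plat 16.7 against 21.5 and Sox7 6.55 against 9.32 CPM. Gata6 (22.8 against 21.9 CPM), Gata4 (9.42 against 8.37 CPM) and Sox17 (5.24 against 4.08 CPM) averaged lower. Thbd averaged 0.21 against 1.11 CPM and Pthlh 0.20 CPM in each group, and neither was tested. Extraembryonic mesoderm and allantois markers summed to 264 to 387 CPM in control and 436 to 605 CPM with Gli3R. Ahnak, 1 of the 8, rose (42.6 to 85.5 CPM, adjusted p = 0.0172, edgeR), and with litter as a block 3 passed, Ahnak (0.0121), Msx1 (0.0121) and Bmp4 (0.0424). Tagln (52.1 against 99.4 CPM) and Postn (4.43 against 6.57 CPM) also averaged higher. Lower averages were those of Tbx4 (9.86 against 7.67 CPM), Tbx20 (7.79 against 6.42 CPM) and Hoxa13 (0.20 against 0.13 CPM). Epiblast and epithelium markers summed to 833 to 1429 and 946 to 1544 CPM, most of it the keratins Krt8 and Krt18. Krt8 (427 against 491 CPM), Krt18 (619 against 767 CPM) and Otx2 (10.4 against 11.3 CPM) averaged higher. Pou5f1 (26.8 against 12.2 CPM), Epcam (19.7 against 8.92 CPM), Cldn6 (9.10 against 0.92 CPM) and Nanog (19.3 against 13.6 CPM) averaged lower without passing. The control of litter 1 was the highest library for each of them. Pou5f1 read 42.5, 20.7 and 17.4 CPM in control against 12.7, 13.1 and 10.9 CPM in Gli3R libraries. Nanog read 36.7, 8.95 and 12.2 against 9.01, 9.23 and 22.6 CPM, so its groups overlapped. Utf1 and Sox2 also averaged lower and were not tested. E-cadherin (Cdh1) averaged 4.36 against 0.45 CPM and passed only with litter as a block (edgeR, adjusted p = 0.0327; 0.0869 without). Endothelial markers summed to 181 to 224 and 243 to 265 CPM; Etv2 (62.2 against 96.2 CPM) and Tal1 (15.8 against 30.8 CPM) averaged higher, Egfl7 (80.5 against 73.9 CPM) and Cd34 (10.5 against 9.23 CPM) lower, and 0 of 10 passed (edgeR, with or without the block). Primitive blood markers summed to 185 to 417 and 183 to 638 CPM, and extraembryonic ectoderm markers to 10.3 to 17.8 and 8.13 to 11.02 CPM with Elf5 at 0. Notochord and node markers summed to 9.13 to 46.8 and 5.06 to 9.16 CPM with Foxj1 at 0 and Noto, Shh and Chrd under 1 CPM on average. Most of it was T, which read 43.6, 16.4 and 7.99 CPM in control against 8.08, 5.13 and 3.53 CPM in Gli3R libraries. T (22.6 against 5.58 CPM on average) passed only with the block (edgeR, adjusted p = 0.0373, and 0.402 without). T also marks nascent mesoderm, though it was not among the 12 markers above, so its values do not report notochord alone. What part such differences in cell type markers have in the matrix values was not tested.

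No matrix gene passed the test. Of the 47, 40 had enough reads to test, and by the two-sided quasi-likelihood test of edgeR, with p adjusted by Benjamini-Hochberg over 11913 genes and a threshold of 0.05, 0 were higher and 0 lower. Among all tested genes 0.0252% were higher and 0.109% lower, 0.134% in all. At an unadjusted p under 0.05 there were 5 higher (Col1a1, Col5a1, Has2, Hapln1, Sparc) and 1 lower (Vcan) by edgeR, where 3.56% and 3.29% of all tested genes stood. Single libraries moved these counts. There were 13 higher and 1 lower without the control of litter 3, 2 and 1 without that of litter 2, and 3 and 3 without that of litter 1. There were 3 and 1 without the Gli3R library of litter 2 and likewise without that of litter 3. The counts over all genes moved too. In either direction they were 955 of 12193 without the control of litter 3, 565 of 12155 without that of litter 2 and 953 of 12117 without that of litter 1. Without the Gli3R library of litter 2 they were 643 of 12169, and without that of litter 3 659 of 12188. With litter as a block the count stayed at 0, against 0.227% of all tested genes, with 9 higher and 1 lower unadjusted (4.83% and 3.9% of all tested genes). DESeq2, and the edgeR fit with no filter on low counts, each called 1 member higher, Col1a1. Both also called more of all genes than the main fit did, with counts given in the last section. The lowest adjusted p among members was 0.197, for Vcan, without the block and 0.0631, for Sparc, with it (edgeR).

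Most point estimates lay above 0 all the same. The median log2 fold change of the 40 tested members was 0.19, against -0.01 for all 11913 genes, and 28 of 40 lay above 0, as did 48.1% of all genes. The median was 0.0940 without the Gli3R library of litter 3 and 0.292 without the control library of litter 3. Gli3R libraries were higher than their litter's control in all 3 litters for 18 of 40 members and lower in all 3 for 1, Vcan. Among all tested genes these shares were 15% and 15.3%. By litter, the median log2 ratio of the tested members was 0.27, 0.26 and 0.08 for litters 1, 2 and 3. Among the 2749 tested genes with the greatest total exon length, which include 27 of the 40, the median log2 fold change was 0.02, and it was 0.18 for those 27. For the 6 members between 3.236 and 4.915 kilobases it was 0.21, against -0.02 for all tested genes of that length. For the 7 members between 2.03 and 3.236 kilobases it was -0.01, against -0.02. Members that failed the filter on low counts are left out of these figures, and the median has no test.

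**Figure D1:**
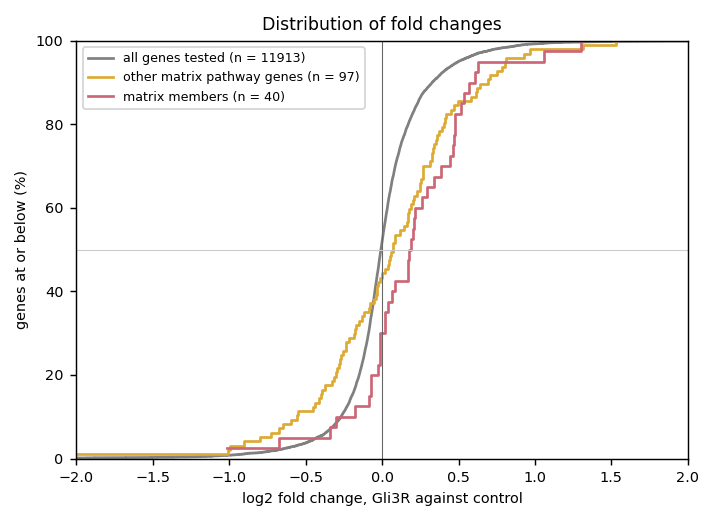
Cumulative share of genes (y axis, percent) at or below each log2 fold change of Gli3R against control (x axis) for all 11913 genes tested, 97 other matrix pathway genes and 40 matrix members. The curve of the members crosses 50% at 0.19 and that of all genes at -0.01, and their tails overlap.

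Summed over the 47 genes, matrix transcripts made up 1141, 1212 and 1420 CPM in the control libraries of litters 1, 2 and 3 and 1320, 1430 and 1588 CPM in the Gli3R libraries of the same litters. The groups overlapped, and within a litter the Gli3R library stood at 1.16, 1.18 and 1.12 times its control. Litter 3 was the highest in both groups. In 30 of 40 tested members the highest control library was that of litter 3, which held the highest control value in 32.9% of all tested genes. Fn1, Sparc and Itgb1 together made up 50.2% of the summed control level.

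Per kilobase of exon, the order of levels in control libraries was led by Sparc (82.4 CPM per kilobase), Itgb1 (43.4), Serpinh1 (28.9), Fn1 (28.4), Fbln1 (25.1) and Mmp2 (14.2). Serpinh1, Fn1 and Fbln1 lie within their spread of each other. Sparc stood at the 90.5th percentile of the 11000 tested genes with an exon length, Itgb1 at the 83.8th and Fn1 at the 78.1st. The 15 basement membrane genes, laminins included, all lay below the middle of the tested genes, from Lamb1 (4.66 CPM per kilobase, 47th percentile) and Col4a1 (4.24, 45.1st) down to Col4a6 (0.351), Lamb2 (0.25) and perlecan (Hspg2, 0.13), the lowest of the tested members. Tested fibrillar collagens ranged from Col1a2 (1.44, 23.4th percentile) to Col2a1 (0.322, 3.25th percentile), with Col1a1 at 0.75 CPM per kilobase. For these counts the exon length is the union of exons in a later annotation than the authors may have used. Its median was 5.99 kilobases for the tested members and 3.24 for all tested genes with a length, and Hspg2 had 14.2. Whether reads covered long transcripts evenly was not tested.

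**Figure D2:**
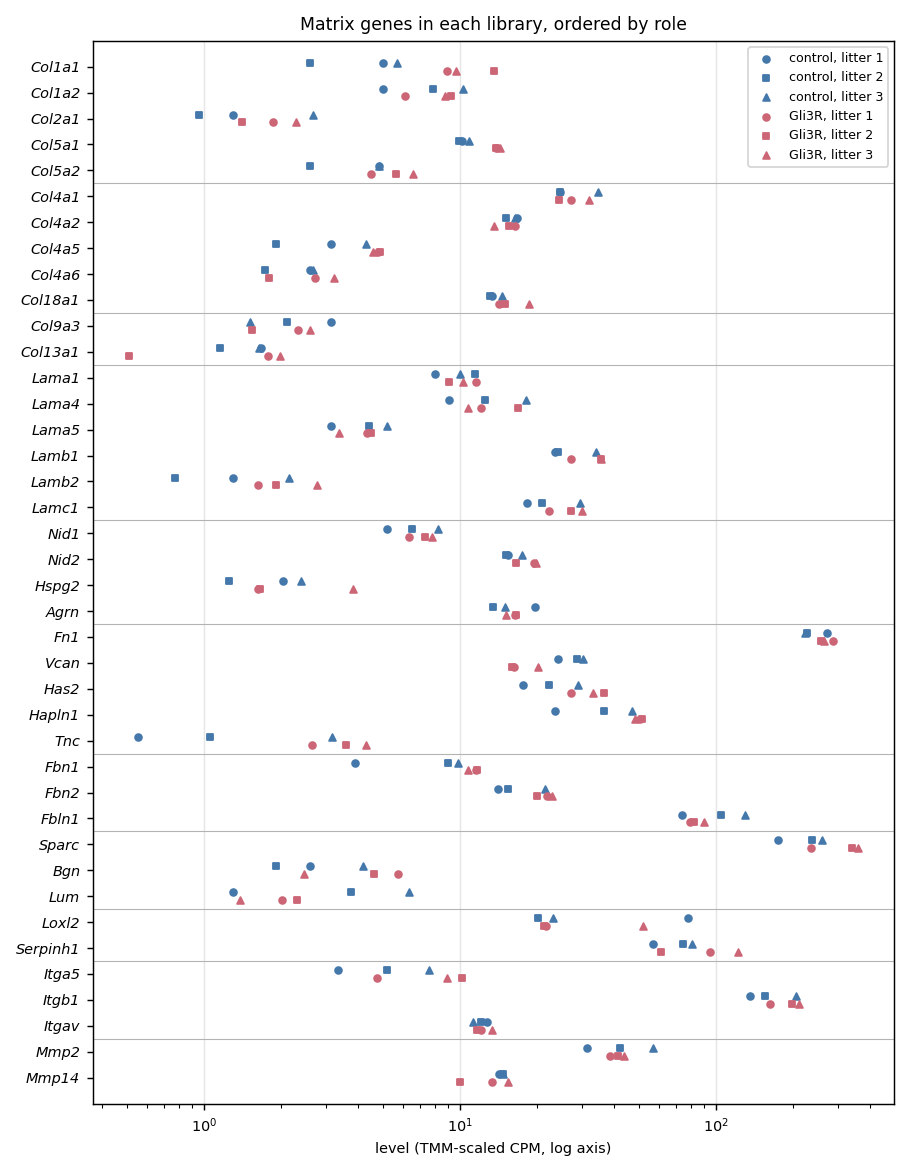
TMM-scaled CPM (x axis, log scale) of the 40 tested matrix genes (y axis, grouped by role) in each library, with control in blue, Gli3R in red and a marker shape for each litter. Levels span from 0.51 CPM (Col13a1) to 359.5 CPM (Sparc), and the groups overlap for all but 6 genes: Col1a1, Col5a1, Col4a5, Hapln1 and Fbn1 above and Vcan below. Among all tested genes, 5.62% stood apart above and 6.33% below.

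Fibronectin and the hyaluronan matrix include Vcan, which had the lowest p of the set without the litter block and the next after Sparc with it. Versican, the product of Vcan, is a large proteoglycan that binds hyaluronan, and the link protein encoded by Hapln1 locks the 2 together. Vcan read 24.1, 28.8 and 30.2 CPM in the control libraries of litters 1, 2 and 3, against 16.3, 16.02 and 20.3 CPM with Gli3R. All 3 values with Gli3R lay below all 3 control values, and the same was true of 6.33% of all tested genes. The log2 fold change was -0.67 ± 0.15 (SE), with a 95% interval of -1.01 to -0.34, and did not pass (edgeR, adjusted p = 0.197; 0.110 with litter as a block). It kept its sign, between -0.78 and -0.61, in the 6 fits that leave out a library. Counts per gene do not tell apart the splice forms of versican.

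Hapln1 stood the other way around. It read 23.6, 36.5 and 47.2 CPM in control against 50.6, 51.6 and 48.3 CPM in Gli3R libraries. Every Gli3R value lay above every control value, though only narrowly above the control of litter 3. Groups that do not overlap with Gli3R higher were seen in 5 of 40 tested members and in 5.62% of all tested genes. The difference, 0.48 ± 0.20 (SE) on the log2 scale, missed the threshold (edgeR, adjusted p = 0.712). Without the control library of litter 1 it was 0.27, and without that of litter 3 it was 0.72. Per kilobase, the ratio of Vcan to Hapln1 was 0.436, 0.336 and 0.273 in control and 0.138, 0.132 and 0.179 in Gli3R libraries. The ratio was lower with Gli3R in all 3 litters, and its groups did not overlap; this pair was chosen after its values were seen and the ratio has no test.

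Hapln1 and Vcan are neighbours on chromosome 13 of the mouse, with 0 protein-coding genes between them in RefSeq, and they face each other from opposite strands. Their promoters are shown because the 2 genes stand in opposite directions and because both hold the letters CCACCCA, the core of the site that Gli factors bind. Sequences are from RefSeq on GRCm38.p6, 5′ to 3′ on the gene's strand, and capitals mark the motif, which both carry as its reverse complement TGGGTGG. The Vcan stretch lies at chr13:89742650-89742750 on the minus strand, with the motif 191 to 185 bases before the start of transcription, and the Hapln1 stretch at chr13:89540417-89540517 on the plus strand, with the motif 172 to 166 bases before the start.
Vcan: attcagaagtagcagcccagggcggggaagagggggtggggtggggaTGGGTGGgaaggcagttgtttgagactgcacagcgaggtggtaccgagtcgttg
Hapln1: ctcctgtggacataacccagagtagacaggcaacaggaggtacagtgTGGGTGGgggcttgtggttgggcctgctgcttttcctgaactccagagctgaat

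RefSeq windows from 250 bases before to 50 after the start were matched for 30 of the 47 members (35 windows). CCACCCA or its reverse complement was present for 6 of these 30 genes (Agrn, Col11a1, Fbln1, Hapln1, Mmp14 and Vcan), and in 7 of their 35 windows, against 9.30% of all 32851 windows. Members' windows were richer in G and C (median 61.3%, against 52.7% for all), and the GC box GGGCGG, searched on both strands, was in 77.1% of them against 35.7% of all. A match describes letters only, and the 6 genes include Vcan below and Hapln1 above the control level.

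The other genes of this group read higher with Gli3R in every litter without passing. Has2, whose enzyme makes hyaluronan, read 17.6, 22.3 and 29.0 CPM in control against 27.3, 36.5 and 33.3 CPM in Gli3R libraries. Its groups overlapped only through the control of litter 3 and the Gli3R library of litter 1 (log2 fold change 0.48 ± 0.19, adjusted p = 0.678, edgeR). Fn1, the fibronectin gene, read 273, 228 and 223 CPM in control against 288, 258 and 266 CPM in Gli3R libraries. Its interval was among the narrowest of the set: the fold change was 1.12, with a 95% interval of 0.967 to 1.31, so that a change of 1.5-fold lies outside it. Tnc, which encodes the adhesion-modulating protein tenascin C, had only 3, 11 and 25 reads in control and 34, 28 and 28 in Gli3R libraries. Its values of 0.557, 1.06 and 3.17 against 2.64, 3.59 and 4.30 CPM overlapped (log2 fold change 1.06 ± 0.50, adjusted p = 0.751, edgeR), and the estimate ran from 0.75 without the control library of litter 1 to 1.98 without that of litter 3.

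**Figure D3:**
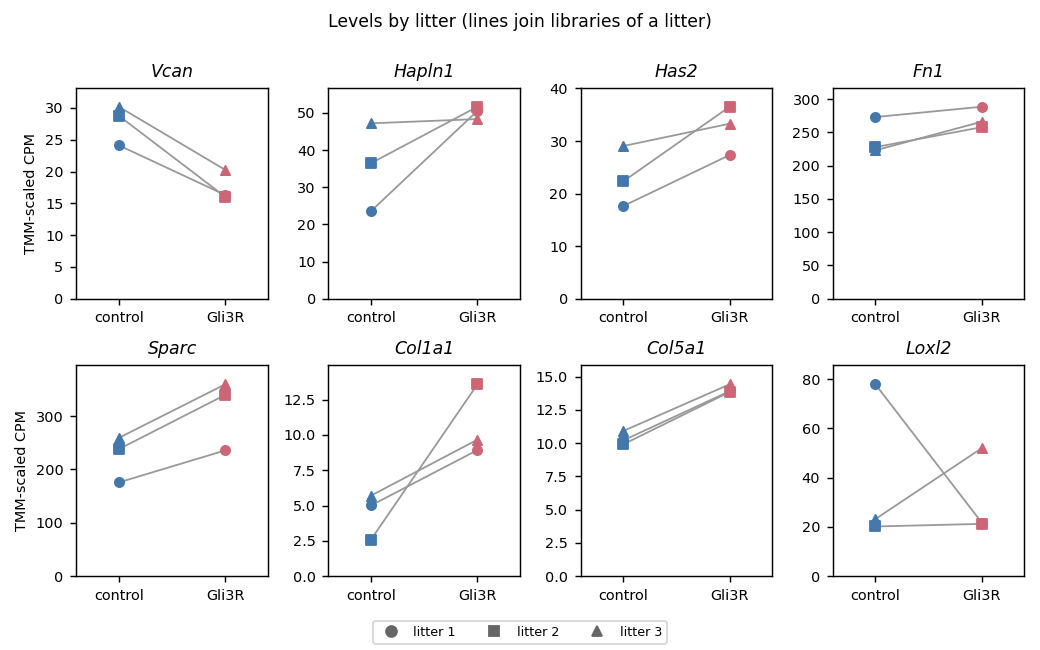
TMM-scaled CPM (y axis, from 0) of 8 matrix genes in control and Gli3R libraries, with a line joining the libraries of each litter. All 3 lines slope down for Vcan and up for Hapln1, Has2, Fn1, Sparc, Col1a1 and Col5a1, while those of Loxl2 go both ways.

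Among small matrix proteins, Sparc was the member with the highest level. It encodes osteonectin, a secreted calcium- and collagen-binding protein that is abundant in basement membranes. Sparc read 176, 238 and 259 CPM in control against 236, 339.6 and 359.5 CPM in Gli3R libraries. The Gli3R library was higher in each litter, litter 1 was low in both groups, and the groups overlapped. The fold change was 1.39 (95% interval 1.05 to 1.82), or 0.47 ± 0.18 on the log2 scale, and did not pass (edgeR, adjusted p = 0.618). With litter as a block the log2 fold change was again 0.47, and the unadjusted p went from 0.0242 to 2.65e-04 (edgeR). Of the small leucine-rich proteoglycans, which bind collagen fibrils, Lum read 1.30, 3.75 and 6.34 CPM in control against 2.02, 2.31 and 1.38 CPM in Gli3R libraries. The groups overlapped through the low control of litter 1 (log2 fold change -1.02 ± 0.48, adjusted p = 0.745, edgeR), and Bgn stood at 0.61 ± 0.39. Dcn, the neighbour of Lum, was too sparse to test, with 31 reads in control and 16 in Gli3R libraries.

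Fibrillar collagens gave the largest fold change of the set. Col1a1 and Col1a2 encode the 2 chains of type I collagen, which join as a pair of the first with 1 of the second. Col1a1 read 5.01, 2.60 and 5.71 CPM in control against 8.93, 13.6 and 9.67 CPM in Gli3R libraries, from 27, 27 and 45 against 115, 106 and 63 reads. The groups did not overlap, and the fold change was 2.46 (95% interval 1.52 to 3.97), or 1.30 ± 0.31 on the log2 scale. It did not pass in the edgeR quasi-likelihood test (adjusted p = 0.245; 0.178 to 0.703 when a library was left out), but it did with DESeq2 (0.0160) and in edgeR without the filter on low counts (0.0206).

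Col1a2 did not share that difference. It read 5.01, 7.89 and 10.3 CPM in control against 6.13, 9.23 and 8.75 CPM in Gli3R libraries, a log2 fold change of 0.02 ± 0.28 with an interval of -0.61 to 0.65 (adjusted p = 0.998, edgeR). The ratio of Col1a1 to Col1a2 per kilobase was 0.902, 0.297 and 0.501 in control and 1.31, 1.33 and 0.997 in Gli3R libraries, with no overlap. The ratio has no test.

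Col5a1 and Col5a2 encode chains of type V collagen, which starts fibrils and sets their width. Col5a1 read 10.2, 9.91 and 10.9 CPM in control against 13.9, 13.8 and 14.4 CPM in Gli3R libraries. Values within each group lay close together and the groups stood apart (fold change 1.36, interval 1.08 to 1.71, adjusted p = 0.512, edgeR; 0.412 with litter as a block). Col5a2 read 4.82, 2.60 and 4.82 against 4.50, 5.64 and 6.60 CPM and overlapped (0.46 ± 0.30 on the log2 scale). Their ratio per kilobase lay between 1.67 and 3.01 in all 6 libraries. Col2a1, the collagen of cartilage and notochord sheath, read 0.96 to 2.66 CPM in all libraries.

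**Figure D4:**
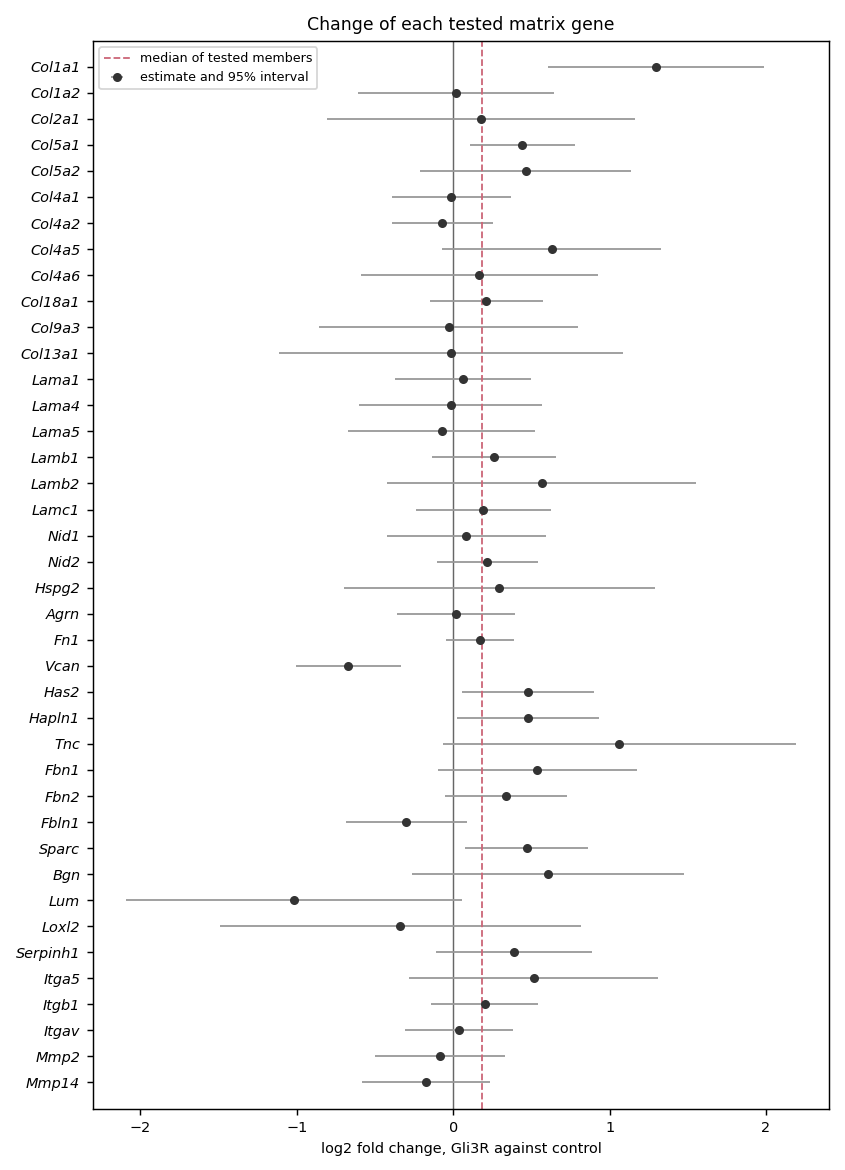
Log2 fold change of Gli3R against control (x axis) for each tested matrix gene, with points for the edgeR estimate, bars for its 95% interval and a dashed line for the median of the tested members (0.19). Intervals of Col1a1, Col5a1, Has2, Hapln1 and Sparc lie above 0 and that of Vcan below, before any adjustment for the number of genes.

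Col4a1 and Col4a2 lay near no difference, and Col4a5 did not overlap between the groups. Col4a1 and Col4a2 encode the chains of the common type IV collagen network. Col4a1 read 24.7, 24.7 and 34.8 CPM in control against 27.2, 24.5 and 32.1 CPM in Gli3R libraries. Col4a2 read 16.7, 15.1 and 16.5 CPM in control against 16.4, 15.6 and 13.7 CPM in Gli3R libraries. The groups of both overlapped, with log2 fold changes of -0.01 ± 0.17 and -0.07 ± 0.14 (edgeR, adjusted p = 0.998 and 0.996). Fold changes between 0.761 and 1.29 for Col4a1 and between 0.761 and 1.19 for Col4a2 are within the 95% intervals, so a change of 1.5-fold in either is outside them. Their ratio per kilobase was 1.44 to 2.29 over the 6 libraries.

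The pair is transcribed in opposite directions from a common promoter on chromosome 8 of the mouse. In RefSeq on GRCm38.p6 the promoter windows of the 2 genes overlap by 78 bases, and 22 bases belong to the first exon of both. Reads in bases that both genes share cannot be assigned to either without strand. A second pair, Col4a5 and Col4a6 on chromosome X, has starts 1343 bases apart and encodes chains of a rarer network. Col4a5 read 3.15, 1.92 and 4.31 CPM in control against 4.81, 4.87 and 4.6 CPM in Gli3R libraries, where the groups did not overlap (log2 fold change 0.63 ± 0.31, adjusted p = 0.789, edgeR). Col4a6 read 2.60, 1.73 and 2.66 against 2.72, 1.79 and 3.22 CPM, with overlap. Col18a1, the collagen that is the source of endostatin, read 13.2 to 14.6 and 14.2 to 18.7 CPM.

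Laminins are trimers of an alpha, a beta and a gamma chain. Lamb1 read 23.6, 24.1 and 34.0 CPM in control against 27.3, 35.6 and 35.6 CPM in Gli3R libraries, and Lamc1 read 18.4, 20.9 and 29.6 against 22.3, 27.2 and 29.9 CPM. Both were higher in the Gli3R library of each litter, and the groups overlapped (log2 fold changes 0.26 ± 0.18 and 0.19 ± 0.19, adjusted p = 0.929 and 0.971, edgeR). The ratio of Lamb1 to Lamc1 per kilobase had the narrowest relative range of the 12 pairs compared, between 1.5 and 1.71 in the 6 libraries.

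None of the 3 alpha chains in the set, taken alone, matched Lamc1 in level, and their summed level was not compared with it. Lama4, an alpha chain known from vessels, read 9.09, 12.6 and 18.1 CPM in control against 12.1, 16.9 and 10.7 CPM in Gli3R libraries, or 0.453 to 0.785 of Lamc1 per kilobase, a ratio added after the values were seen. Lama1, the alpha chain of the first embryonic basement membranes, read 7.98, 11.4 and 10.02 against 11.6, 9.10 and 10.3 CPM, or 0.268 to 0.439 of Lamc1. Lama5 read 3.15, 4.43 and 5.20 against 4.35, 4.49 and 3.38 CPM. The log2 fold changes of the 3 alpha chains lay between -0.07 and 0.06, and their groups overlapped. Lamb2, the beta chain more typical of mature basement membranes, was low, at 0.77 to 2.76 CPM over all libraries.

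Nidogens and heparan sulfate proteoglycans link the networks. Nid2 read 15.4, 15.1 and 17.5 CPM in control against 19.5, 16.5 and 19.8 CPM in Gli3R libraries, and Nid1 read 5.19, 6.54 and 8.24 against 6.37, 7.31 and 7.83 CPM. Nid1 stood at 0.262 to 0.377 of Nid2 per kilobase in every library, with overlap between the groups. Agrn, which encodes agrin, read 13.5 to 19.7 and 15.2 to 16.7 CPM (log2 fold change 0.02 ± 0.17), and Hspg2 read 1.25 to 2.41 and 1.63 to 3.84 CPM (0.29 ± 0.44).

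**Figure D5:**
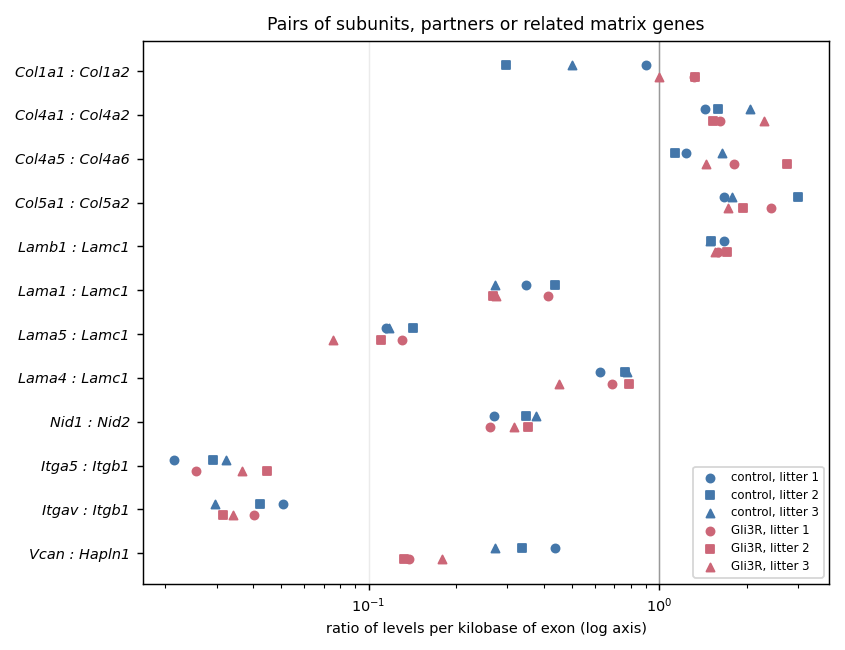
Ratio of the levels per kilobase of exon of 12 pairs of genes whose products assemble or bind together or, for the nidogens, are related (x axis, log scale) in each library, control in blue, Gli3R in red, a marker shape for each litter. Groups stand apart for Col1a1 to Col1a2, higher with Gli3R, and for Vcan to Hapln1, lower with Gli3R, and overlap for the other 10. The pairs Vcan to Hapln1 and Lama4 to Lamc1 were added after their values were seen. Because Vcan alone lay below and Hapln1 alone above every control value, their ratio had to stand apart.

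Elastic fibre genes split by level. Fbln1, which encodes fibulin 1, a binding partner of versican, fibronectin and elastin, read 74.03, 104 and 130.4 CPM in control against 79.2, 82.4 and 90.4 CPM in Gli3R libraries. The Gli3R values lay within the control range (log2 fold change -0.30 ± 0.17, adjusted p = 0.880, edgeR). The fibrillins build the microfibrils that come before elastin. Fbn2 read 14.1, 15.5 and 21.6 against 21.9, 20.1 and 22.9 CPM (0.34 ± 0.17, adjusted p = 0.811, edgeR), and Fbn1 read 3.90, 9.04 and 9.89 against 11.6, 11.7 and 10.7 CPM (0.54 ± 0.28, adjusted p = 0.821, edgeR). Both were higher in the Gli3R library of every litter, and the groups of Fbn1 did not overlap. Elastin itself (Eln) had 1 read in control and 11 in Gli3R libraries. Without the low-count filter it stood at an unadjusted p of 0.0339 and an adjusted p of 0.711 (edgeR).

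Of the enzymes and chaperones of matrix assembly, 2 were tested, and neither separated the groups. Loxl2, a lysyl oxidase that cross-links collagen, read 77.9, 20.2 and 23.2 CPM in control against 21.7, 21.3 and 52.01 CPM in Gli3R libraries. The control of litter 1 and the Gli3R library of litter 3 stood above the other 4, which lay between 20.2 and 23.2 CPM. Its log2 fold change was -0.34 ± 0.52, and turned from -0.87 without the Gli3R library of litter 3 to 0.53 without the control library of litter 1. Lox, the founding enzyme of that family, had 0 reads in all 6 libraries, which allows up to 0.233 CPM in the deepest and 0.557 CPM in the shallowest. Serpinh1, the collagen chaperone HSP47, read 56.8, 74.3 and 81.05 against 95.1, 61.4 and 122.4 CPM and overlapped (0.39 ± 0.22, adjusted p = 0.880, edgeR). The control library is the higher of the pair in litter 2.

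Integrins are the receptors through which cells hold the matrix. Itgb1, the beta chain shared by most matrix integrins, read 136, 155 and 205 CPM in control against 162, 199 and 211 CPM in Gli3R libraries. It was higher in the Gli3R library of each litter, with overlap (log2 fold change 0.20 ± 0.15, adjusted p = 0.942, edgeR). Itga5, the alpha chain of the main fibronectin receptor, read 3.34, 5.20 and 7.61 against 4.74, 10.3 and 8.90 CPM (0.51 ± 0.36, adjusted p = 0.930, edgeR). Itgav, which pairs with several beta chains, read 12.8, 12.1 and 11.3 against 12.1, 11.7 and 13.3 CPM (0.04 ± 0.15). Per kilobase Itga5 made up 0.0214 to 0.0448 and Itgav 0.0297 to 0.0509 of Itgb1. Of the proteases that cut matrix, Mmp2 read 31.5, 42.4 and 56.7 against 38.6, 41.7 and 43.7 CPM (-0.09 ± 0.19), and its membrane-bound activator Mmp14 read 14.3, 14.8 and 14.7 against 13.4, 10.00 and 15.5 CPM (-0.17 ± 0.18). Both overlapped, and intervals of 0.706 to 1.26-fold and 0.668 to 1.17-fold leave out a 1.5-fold change.

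The remaining collagens were near the limit of these libraries. Col9a3 and Col13a1 were tested at 0.51 to 3.15 CPM, with log2 fold changes of -0.03 ± 0.37 and -0.01 ± 0.49. Col3a1 had 13 reads in control and 16 in Gli3R libraries, Col11a1 had 12 and 17, Col6a1 had 11 and 13, and Col6a2 had 5 and 8. The 95% interval of the Gli3R to control ratio of Col3a1 ran from 0.488 to 2.44 and covers counting error only. Those of Col11a1, Col6a1 and Col6a2 also spanned no difference. On the same basis, that of Dcn ran from 0.232 to 0.855 and that of Eln from 1.41 to 416. Spread between libraries is not in these intervals. With Dcn, Eln and Lox, these make up the 7 members that were not tested.

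Other genes of the matrix pathway, 155 in number, did not pass either. Of 97 tested, 0 were higher and 0 lower over all genes tested (edgeR), 14 and 9 at an unadjusted p under 0.05 (3.56% and 3.29% of all tested genes), and their median log2 fold change was 0.07. DESeq2 called 2 lower, Gpc3 and Hapln3. Of the 6 with the lowest p, Gpc3, a glypican that binds Hedgehog ligands, read 396, 541 and 496 CPM in control against 323, 345.5 and 279.9 CPM in Gli3R libraries (log2 fold change -0.60 ± 0.12, adjusted p = 0.175, edgeR). No Gli3R value reached the control range, and Gpc3 passed without the control library of litter 1 (adjusted p = 0.0208, edgeR) and without litter 1 (0.0255). Hapln3, a relative of Hapln1, read 5.01, 3.56 and 9.26 against 1.79, 0.641 and 1.69 CPM (-2.07 ± 0.46, adjusted p = 0.197, edgeR). The procollagen protease gene Adamts3 (6.31, 8.18 and 7.99 against 4.27, 3.20 and 3.68 CPM) and Sparcl1, the closest relative of Sparc (-0.99 ± 0.27), also read lower, and the matrix metalloproteinase genes Mmp9 (1.53 ± 0.40) and Mmp11 (0.93 ± 0.27) higher. Adjusted p of these 4 lay between 0.211 and 0.415 (edgeR). By kind, 6 of 12 adaptors that tie integrins to actin, among them Zyx, Tln1 and Ilk, were higher at an unadjusted p under 0.05 by edgeR, against 3.56% of all tested genes, and 0 passed. Of 11 proteoglycan and hyaluronan genes, 3 were lower at that level, against 3.29% of all tested genes, and 0 higher. These 2 kinds had the most uneven counts. The 4 tested collagens, the 6 laminins, netrins and other basement membrane genes, and the 19 collagen enzymes each had 1 higher and 1 lower. The 17 other matrix proteins had 2 and 2, the 11 matrix receptors 1 and 0, and the 17 proteases and inhibitors 2 and 1.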

How the data were processed

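The authors deposited raw counts per Entrez gene for 6 libraries. Tools listed in the submitters' processing notes are TopHat2 2.0.14, Subread 1.4.6 with featureCounts, FastQC and edgeR, beside the build mm9. Which annotation was used, whether strand was, and how multi-mapped reads were treated is not given in the sources used here. Cells had 5 minutes of dissociation and the SMARTer Ultra Low kit served for cDNA, per the labels' protocols.

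Genes were kept by filterByExpr (minimum count 10, 11913 genes left) and tested by quasi-likelihood in edgeR 4.0.16 (R 4.3.3) after TMM scaling, two-sided, with Benjamini-Hochberg adjusted p under 0.05 as the call. Standard errors were taken from the F statistic, intervals from its degrees of freedom, and both are on the log2 scale. Litter log2 ratios used CPM + 0.5. Exon lengths came from GENCODE M21, promoters from RefSeq, both on a later build than the counts, so no other coordinates are given. The scripts were tested on simulated data. Chi-square per gene between libraries ran from 4.12 to 15.2, so none was a copy of another.

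Members, lists and tests were chosen with earlier results of these data known. Every member may be named; values in each library are given for the 10 of lowest p, the 8 of highest level and the subunit pairs. Values of further members, the 3 integrin adaptors named and some cell type markers named were chosen after their values were seen. Of the other pathway genes the 6 of lowest p are named. Same-numbered libraries share a litter, per the labels. Their deviations correlated at 0.168, 0.187 and 0.0755, and those of control and Gli3R libraries from different litters at -0.269 to 0.162. P-values measure the spread between pools of embryos. Alternatives were litter as a block, scaling by DESeq2's factors or by total count, no filter or at least 5 CPM in 3 libraries, DESeq2 1.42.0, and leaving out each library or litter.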

Additional observations from a re-analysis of the deposited data

How the results depend on the processing

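The count of 0 matrix members lower held under all 15 alternatives, and that of 0 higher under 13; 1 was higher (Col1a1) with no filter on low counts and with the DESeq2 test. The median log2 fold change of tested members ran from 0.0940 to 0.292 when a library was left out, lowest without the Gli3R and highest without the control library of litter 3, and from 0.18 to 0.22 without a litter. With the replicate block it was 0.21, and no member's call changed. Between 1 and 7 of 40 members changed sign when a library or litter was left out or under the block or library size alone, none of them called. Among other matrix genes 2 were lower (Gpc3 and Hapln3) with no filter and with DESeq2, and 0 or 1 when a library or litter was left out. Over all genes, 3 were higher and 13 lower, against 9 and 18 with the replicate block, 5 higher with library size alone, 49 and 59 with no filter, 1 higher at 5 CPM, and 43 and 51 with DESeq2. Leaving out a library gave 0 to 2 higher and 0 to 16 lower; leaving out a litter gave 0 to 5 and 0 to 22. Depth limits the 7 untested members and those under about 3 CPM, whose standard errors reached 0.50.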
